A study of Arabidopsis thaliana with 6 samples.

Results

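The HD-ZIP IV epidermal regulators are transcription factors that pair a homeodomain with a leucine zipper and carry a lipid-binding START domain. Here they are the 10 genes ATML1 (AT4G21750), PDF2 (AT4G04890), HDG1 (AT3G61150), HDG2 (AT1G05230), HDG5 (AT5G46880), HDG11 (AT1G73360), HDG12 (AT1G17920), ANL2 (AT4G00730), FWA (AT4G25530) and GL2 (AT1G79840). They were taken by their gene codes from the 33602 gene models of each count file, and 9 of the 10 passed the filter on low counts. FWA did not.

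HD-ZIP IV proteins act mostly in the outermost cell layer of the plant. ATML1 and PDF2 together give shoot cells their epidermal identity, other members shape trichomes, stomata and the cuticle, and GL2 is best known for promoting trichomes and for holding back root hairs. Several of these proteins bind a short DNA motif, the L1 box, that was first described in promoters active in the outer cell layer.

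All 6 libraries came from whole Arabidopsis thaliana seedlings that carry 35S::CUC2-GR, labelled as an overexpression transgene, at Boyes stage 1.02, kept in vitro under long days at 21 °C. The 3 Dex libraries were made from plantlets that spent 6 h before freezing in 10 mL of liquid medium with 10 µL of dexamethasone added, and the 3 no_Dex libraries from untreated plantlets. The viral 35S promoter drives the transgene broadly, and dexamethasone, the ligand of the glucocorticoid receptor part (GR), lets such a fusion protein enter the nucleus. No mock-treated group and no line without the transgene are among the samples, so an effect of dexamethasone or handling and an effect of CUC2-GR cannot be told apart.

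The Dex libraries held 26161582 to 29046312 counted read pairs and the no_Dex libraries 28378873 to 29481253. Dex replicate 1 stood apart, with correlations of log2 level across tested genes of 0.991 and 0.989 with the other Dex libraries, against 0.996 between Dex replicates 2 and 3 and 0.996 or 0.997 among the no_Dex libraries. Genes are not independent replicates, so these coefficients are descriptions. CUC2, counted as transgene and endogenous gene together, had 867 ± 14.3 counts per 1e6 pairs (CPM) in Dex and 849 ± 28.9 CPM in no_Dex (SD, n = 3 each), and was not called (edgeR's adjusted p = 0.876).

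The L1 box was searched, in both of its forms, TAAATGTA and TAAATGCA and on both strands, in the 1000 bases upstream of each gene start in the TAIR10.1 annotation of RefSeq. It was present upstream of ATML1, HDG2 and ANL2, that is 3 of the 10 genes, and in 15.8% of the same windows of 27443 protein-coding genes. These windows are shown because they hold the motif that HD-ZIP IV proteins recognise, at members whose levels are given next. Each is written 5′ to 3′ on the strand of its gene, with the motif in capitals, on whichever strand it matched. ATML1 lies at chr4:11554504-11554563, HDG2 at chr1:1518974-1519033 and ANL2 at chr4:304635-304694. The motif began 509 bases upstream of the ATML1 start, 107 bases upstream of the HDG2 start and 56 bases upstream of the ANL2 start.
ATML1 L1 box: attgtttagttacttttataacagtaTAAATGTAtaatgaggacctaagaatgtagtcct
HDG2 L1 box: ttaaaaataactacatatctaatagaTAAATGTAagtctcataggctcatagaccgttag
ANL2 L1 box: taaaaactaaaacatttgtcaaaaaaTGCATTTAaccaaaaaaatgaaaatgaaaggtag

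The hexamer CATGTG, a motif recognised by several proteins of the NAC family, to which CUC2 belongs, was searched in the same windows. It was found upstream of ATML1, HDG2, HDG11 and FWA, which is 4 of the 10 genes, and in 37.7% of all windows. Within 250 bases of the start it was found at ATML1 alone among the 10, against 11.1% of all genes. The ATML1 window (chr4:11554781-11554838, the reverse form CACATG in capitals, beginning 232 bases upstream) is shown because ATML1 gave the smallest p-value of the family. The HDG7 window (chr5:21196443-21196500, 133 bases upstream) is shown because HDG7, a further HD-ZIP IV gene, moved the other way. Of the 6 HD-ZIP IV genes outside the 10, 3 held the hexamer within 1000 bases: HDG7, and HDG3 and HDG10, which were not tested. A match is a run of letters and not a known binding site.
ATML1 hexamer: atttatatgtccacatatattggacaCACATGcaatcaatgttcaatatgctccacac
HDG7 hexamer: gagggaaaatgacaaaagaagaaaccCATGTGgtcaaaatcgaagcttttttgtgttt

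Some members are close copies of each other, which matters because reads that fitted a second place equally well were removed before counting. Translated coding sequences of the 10 genes were 35.0% to 91.7% identical over the 45 possible pairs, with a median of 47.0%. ATML1 and PDF2, which act redundantly in the shoot epidermis, were the closest, at 91.7% of 735 aligned residues and 84.0% of 2208 aligned coding bases. HDG11 and HDG12 followed at 76.4% of 677 residues. The longest run of identical coding bases was 28 between ATML1 and PDF2, 29 between HDG11 and HDG12, and 34 for any pair of the 10, between PDF2 and HDG2. The stretches below begin at that shared run in each pair and show the bases by which reads of the copies can be told apart, in capitals. Positions are counted from the first coding base: 1478 to 1567 in ATML1, 1451 to 1540 in PDF2, 2017 to 2106 in HDG11 and 1921 to 2010 in HDG12. Over these 90 bases ATML1 and PDF2 differed at 14 positions, and HDG11 and HDG12 at 17.
ATML1 coding: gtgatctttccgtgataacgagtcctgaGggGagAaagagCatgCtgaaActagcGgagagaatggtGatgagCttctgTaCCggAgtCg
PDF2 coding: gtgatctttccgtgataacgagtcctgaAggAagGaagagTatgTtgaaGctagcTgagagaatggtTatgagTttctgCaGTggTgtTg
HDG11 coding: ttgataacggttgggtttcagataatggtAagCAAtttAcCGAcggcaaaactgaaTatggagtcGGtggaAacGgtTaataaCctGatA
HDG12 coding: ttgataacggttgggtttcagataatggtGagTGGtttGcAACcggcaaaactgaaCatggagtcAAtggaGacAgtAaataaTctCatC

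Levels of different genes were compared per length, as pairs per kilobase of gene model per 1e6 pairs (FPKM). The 10 genes fell into an abundant group, a middle group and a low group, with FWA near 0. PDF2 averaged 27.4 ± 1.87 FPKM in Dex and 33.0 ± 2.08 in no_Dex, ATML1 23.6 ± 0.341 and 30.7 ± 1.17, and ANL2, named for its role in anthocyanin accumulation and root epidermis, 26.5 ± 1.91 and 26.9 ± 0.705 (SD, n = 3 each). These 3 genes took 76.4% to 77.4% of all pairs of the 10 in the Dex libraries and 77.0% to 77.5% in the no_Dex libraries.

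HDG2, which promotes stomatal differentiation, averaged 7.71 FPKM in Dex and 8.79 in no_Dex, and HDG1, which is known to promote cuticle genes, 7.30 and 8.22. GL2 stood at 5.57 and 6.44 FPKM. Lower still were HDG5 at 2.39 in Dex and 2.81 in no_Dex, HDG12 at 1.68 and 1.91, and HDG11, which promotes stress tolerance when overexpressed and acts in trichomes, at 0.875 and 1.25. From ANL2 down to HDG2, and at each step from HDG1 to HDG11, the ranges of neighbours were apart within each group. HDG2 and HDG1 were not separable: HDG2 was higher in 5 of 6 libraries, and their ranges overlapped in Dex and in no_Dex. PDF2 was above ATML1 in 6 of 6 libraries, with overlapping ranges in no_Dex, and its range overlapped that of ANL2 in Dex.

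**Figure D1:**
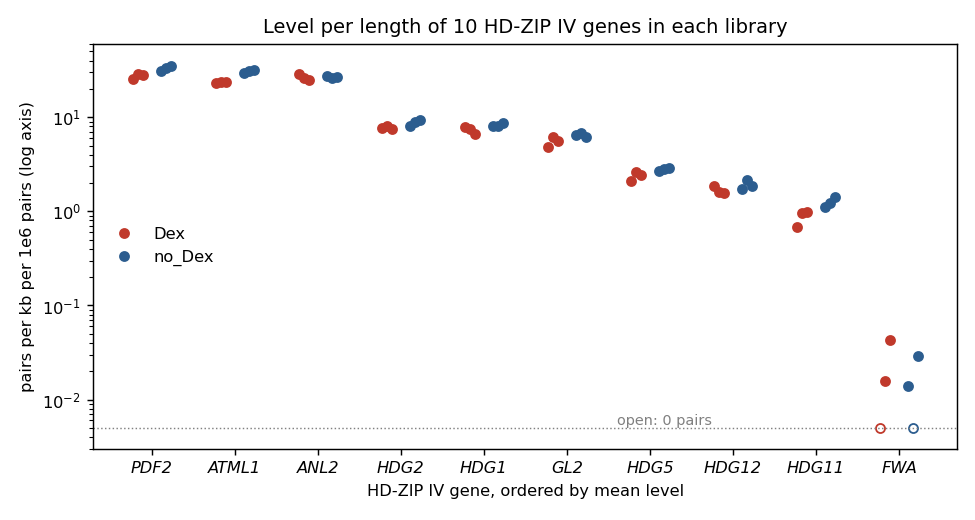
Level per length (pairs per kilobase per 1e6 pairs, log axis) of the 10 HD-ZIP IV genes in each library, with 3 Dex points left of 3 no_Dex points for each gene. PDF2, ATML1 and ANL2 lie above 20, the other tested genes lie between 0.685 and 9.27, and FWA lies at or below 0.0434 with open points for libraries without a pair.

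FWA is silent in most tissues of wild-type plants because its promoter is methylated, and it delays flowering when that silencing is lost. Its counts were 0, 1 and 3 pairs in Dex replicates 1 to 3 and 1, 0 and 2 pairs in no_Dex replicates 1 to 3. Every library was at or under the 3 pairs that a count of 0 allows, which is 0.103 to 0.115 CPM in Dex and 0.102 to 0.106 CPM in no_Dex. No fold change is given for FWA, and a difference was not detectable at this depth.

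Of the 9 tested members, 2 fell (ATML1 and PDF2), none rose and 7 were not called by edgeR's quasi-likelihood test at an adjusted p under 0.05. Over all 21344 tested genes 14.4% were called, 8.4% lower and 5.99% higher. At an unadjusted p under 0.05 the members lower numbered 6 and those higher 0. Among all 21344 tested genes, 3407 were lower and 3017 higher at that threshold. DESeq2 and limma-voom also called 0 members higher. All 9 had a negative log2 fold change, with a median of -0.22, where 48.3% of all tested genes were negative and their median was 0.01. The count of members lower was 1 without any single library other than Dex replicate 1, and 3 without that library. Of all tested genes, 6.08% to 10.4% were called in the former fits and 23.6% in the latter. In 6 of the 9, all 3 Dex values lay below all 3 no_Dex values; among all tested genes 16.9% did so, and in 19.8% all Dex values lay above.

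**Figure D2:**
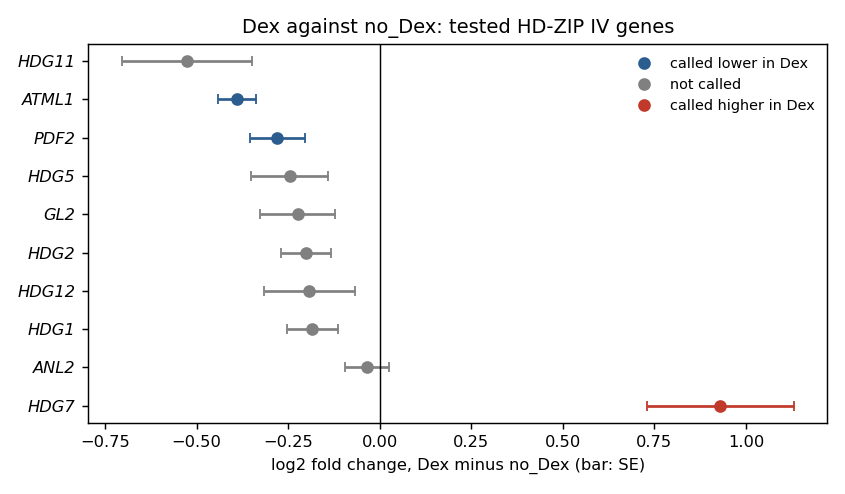
Log2 fold change of each tested HD-ZIP IV gene, Dex minus no_Dex, with its standard error. The 9 members lie between -0.53 and -0.03 with ATML1 and PDF2 called, and HDG7 stands alone on the right at 0.93.

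ATML1 (chromosome 4, 11555039 to 11560771, plus strand) is the founding epidermal identity gene of the family. Its level was 71.2, 73.3 and 72.4 CPM in Dex replicates 1 to 3, against 90.5, 94.0 and 97.6 CPM in no_Dex replicates 1 to 3. The groups were far apart relative to their spread, and no Dex library came near the lowest no_Dex library. ATML1 fell to 76.3% of its no_Dex level, a log2 fold change of -0.39 (SE 0.05, n = 3 per group; edgeR's adjusted p = 0.00269). It was lower in Dex in 3 of 3 pairs of libraries with the same replicate number. The call held in all 13 alternative fits, with log2 fold changes from -0.42 to -0.37 and adjusted p between 1.20e-06 and 0.0204.

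PDF2 (chromosome 4, 2476390 to 2482447, minus strand) is the close partner of ATML1, and loss of both is needed to abolish the shoot epidermis. Its level was 77.9, 88.5 and 87.2 CPM in Dex replicates 1 to 3, against 94.6, 104 and 107 CPM in no_Dex replicates 1 to 3. Dex replicate 1 was the lowest of the 6 libraries, and no_Dex replicate 1 the lowest of its group. PDF2 fell to 82.4% of its no_Dex level, a log2 fold change of -0.28 (SE 0.07; edgeR's adjusted p = 0.0412). Without Dex replicate 1 the log2 fold change was -0.21 and the call held (adjusted p = 0.0268). The call was lost without Dex replicate 2 or 3 (edgeR's adjusted p = 0.0692 and 0.0679) and without no_Dex replicate 1, 2 or 3 (0.0548, 0.148 and 0.143).

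ANL2 (chromosome 4, 299261 to 304612, minus strand), the third abundant gene, was not called, while ATML1 and PDF2 were called lower. Its level was 91.6, 83.1 and 79.8 CPM in Dex replicates 1 to 3, against 88.6, 84.2 and 85.4 CPM in no_Dex replicates 1 to 3. The groups overlapped, with Dex replicate 1 the highest of the 6 libraries and Dex replicate 3 the lowest. Its log2 fold change was -0.03 (SE 0.06; edgeR's adjusted p = 0.748). It was 0.0005 without Dex replicate 3 and -0.08 without Dex replicate 1.

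The order of the abundant genes differed between the groups. Per length, ATML1 was below ANL2 in 3 of 3 Dex libraries and above it in 3 of 3 no_Dex libraries. The ratio of ATML1 to ANL2 was 0.893 ± 0.0719 in Dex and 1.14 ± 0.0666 in no_Dex, and its groups did not overlap. An exact two-sided permutation test gave p = 0.1, which is the smallest p that 3 libraries against 3 allow. The ratio of PDF2 to ANL2 was 1.04 ± 0.138 in Dex and 1.23 ± 0.105 in no_Dex (exact permutation p = 0.2), and that of ATML1 to PDF2 was 0.863 ± 0.0493 and 0.931 ± 0.0285 (exact permutation p = 0.2). Between libraries with the same replicate number, all 3 of these ratios were lower in Dex in 3 of 3 pairs, and 3 pairs allow no exact paired p under 0.25. With the ratios of HDG11 to HDG12 and HDG7 to ANL2, 5 ratios were tested, some of them chosen after their values were seen, and the Benjamini-Hochberg adjusted p was 0.25 for each but the HDG11 to HDG12 ratio (0.4).

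**Figure D3:**
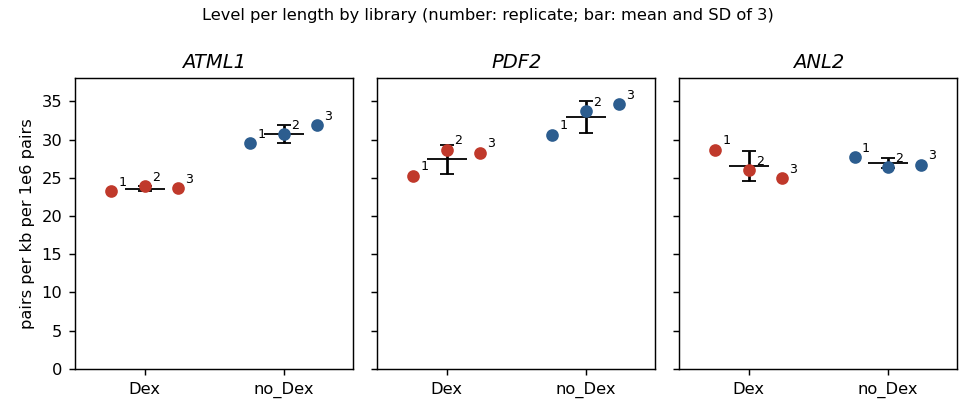
Level per length (pairs per kilobase per 1e6 pairs) of ATML1, PDF2 and ANL2 in each library, numbered by replicate, with the mean and SD of 3 libraries. ATML1 lies at 23.2 to 23.9 in Dex and 29.5 to 31.9 in no_Dex, while the no_Dex points of ANL2 lie within the range of its Dex points.

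HDG11 (chromosome 1, 27578421 to 27582685, minus strand) had the most negative fold change of the family but few reads. It had 61, 77 and 85 pairs in Dex replicates 1 to 3, which is 2.1, 2.94 and 3.01 CPM, against 101, 107 and 123 pairs or 3.43, 3.75 and 4.33 CPM in no_Dex replicates 1 to 3. All Dex values were below all no_Dex values, and Dex replicate 1 was the lowest. The log2 fold change of -0.53 (SE 0.18; edgeR's adjusted p = 0.0857) was not called. With the replicate number as a block it was called lower (-0.53, SE 0.14; edgeR's adjusted p = 0.0477). Without Dex replicate 1 it was -0.37 (adjusted p = 0.112).

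Its close relative HDG12 (chromosome 1, 6161870 to 6165820, minus strand), which acts redundantly with HDG11 in trichome branching, had 5.13, 4.43 and 4.36 CPM in Dex replicates 1 to 3, against 4.82, 5.89 and 5.07 CPM in no_Dex replicates 1 to 3. The groups overlapped and HDG12 was not called (log2 fold change -0.19, SE 0.12; edgeR's adjusted p = 0.341). Without no_Dex replicate 2 its log2 fold change was -0.10. The ratio of HDG11 to HDG12 was 0.528 ± 0.140 in Dex and 0.659 ± 0.0992 in no_Dex per length, within the spread between libraries (exact permutation p = 0.4).

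HDG2 (chromosome 1, 1512896 to 1518900, minus strand) had 20.5, 21.4 and 20.0 CPM in Dex replicates 1 to 3, against 21.7, 24.1 and 24.8 CPM in no_Dex replicates 1 to 3. The lowest no_Dex library was barely above the highest Dex library, and the log2 fold change of -0.20 (SE 0.07; edgeR's adjusted p = 0.0881) was not called in any of the 13 alternative fits. In TAIR10.1, AT1G04353 lies on the opposite strand over 900 of the coding bases of HDG2, and reads of this pair cannot be told apart in unstranded libraries. HDG1 (chromosome 3, 22630331 to 22635155, plus strand) had 22.1, 21.0 and 19.0 CPM in Dex, against 22.9, 22.7 and 24.4 CPM in no_Dex. Its groups did not overlap but were close, and its log2 fold change was -0.18 (SE 0.07; edgeR's adjusted p = 0.118). Without Dex replicate 1 HDG1 was called lower (-0.23, adjusted p = 0.0438).

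HDG5 (chromosome 5, 19030844 to 19035959, plus strand) had 6.37, 7.80 and 7.40 CPM in Dex, against 8.14, 8.48 and 8.74 CPM in no_Dex. All Dex values were lower, but the log2 fold change of -0.25 (SE 0.10; edgeR's adjusted p = 0.157) was not called, and without Dex replicate 1 it was -0.16. GL2 (chromosome 1, 30036956 to 30041440, plus strand) had 14.0, 18.0 and 16.3 CPM in Dex, against 18.5, 19.7 and 17.7 CPM in no_Dex. Dex replicate 2 lay within the no_Dex range, and GL2 was not called (-0.22, SE 0.10; edgeR's adjusted p = 0.186). Without Dex replicate 1 the log2 fold change of GL2 was -0.12. In TAIR10.1, GL2, HDG12 and FWA each overlap a gene on the opposite strand (AT1G79850, AT1G05357 and AT4G25540), outside their coding bases. GL2 also overlaps AT1G09927 on its own strand, and whether this reaches its coding bases was not examined.

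Together the 10 genes summed to 310 to 321 CPM in the Dex libraries and 353 to 375 CPM in the no_Dex libraries, without overlap. In that sum the 2 called genes, ATML1 and PDF2, averaged 72.3 and 84.5 CPM in Dex, against 94.1 and 102 CPM in no_Dex. The other 7 tested members were not called. Of single tested genes, 16.9% had all Dex values below all no_Dex values. In RNA of whole seedlings, fewer epidermal cells and less RNA per cell cannot be told apart. Summed levels of markers of other tissues also differed. The summed level of 5 mesophyll genes was 6370 to 10027 CPM in Dex and 11897 to 13338 in no_Dex, with 2 called lower. Within it CAB1 averaged 4413 CPM in Dex and 7177 in no_Dex, and RBCS1A 3098 and 3096 (log2 fold change -0.01). For 4 guard cell genes the sum was 29.9 to 34.2 CPM in Dex and 43.7 to 47.5 in no_Dex, with 3 called lower. HT1, the guard cell gene not called, had 2.59 CPM in Dex and 2.05 in no_Dex (log2 fold change 0.33). For 4 root genes the sum was 3499 to 4268 CPM in Dex and 4893 to 5135 in no_Dex, with 2 called lower (PYK10 and SHR). Nearly all of this sum was PYK10, at 3443 to 4212 CPM in Dex and 4830 to 5072 in no_Dex. PLT1, a further root gene, had 2.52 CPM in Dex and 2.53 CPM in no_Dex (log2 fold change -0.01). The summed level of 5 vascular genes was 204 to 234 CPM in Dex and 251 to 278 CPM in no_Dex, with 2 called lower. Over all 21344 tested genes 8.4% were called lower and 5.99% higher. None of these 18 marker genes was called higher or stood at 0 pairs in all libraries. Their part in the lower summed level of the HD-ZIP IV genes was not tested.

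Of the remaining 6 HD-ZIP IV genes of Arabidopsis, HDG3, HDG4, HDG8, HDG9 and HDG10 had 0 to 4 pairs in each library and were not tested. HDG7 (AT5G52170, chromosome 5, 21196602 to 21202664, plus strand), whose translated sequence is 57.1% identical to ANL2, passed the filter. It had 97, 64 and 74 pairs in Dex replicates 1 to 3, which is 3.34, 2.45 and 2.62 CPM, against 43, 33 and 50 pairs or 1.46, 1.16 and 1.76 CPM in no_Dex replicates 1 to 3.

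HDG7 rose by 0.93 on the log2 scale (SE 0.20; edgeR's adjusted p = 0.0194), with all 3 Dex libraries above all no_Dex libraries. Leaving out no_Dex replicate 1 or 2 ended the call (edgeR's adjusted p = 0.0694 and 0.0783), and without Dex replicate 1 the log2 fold change was 0.79 (0.0203). In TAIR10.1 the 3′ part of HDG7 overlaps AT5G52180, AT5G52190 and AT5G52200 (I-2) on the opposite strand. None of these overlaps its coding bases, and their log2 fold changes were 0.00, 0.13 and 0.01, none of them called. The deposited HDG7 model has 2049 bases, against 2064 coding bases in TAIR10.1, so the counted model may not reach these genes. The ratio of HDG7 to ANL2 was 0.0514 ± 0.00548 in Dex and 0.0264 ± 0.00542 in no_Dex per length (exact permutation p = 0.1, the smallest possible).

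Genes that work in the epidermis alongside HD-ZIP IV proteins, and genes of FWA silencing with FT, were described as lists. They were read against the 14.4% of all tested genes that were called. That share was 23.6% without Dex replicate 1 and 6.08% to 10.4% without any other single library. In each list where edgeR called 0 genes higher, DESeq2 and limma-voom also called 0. Of 13 epidermal identity genes 12 were tested, and 2 fell, none rose and 10 were not called, with a median log2 fold change of -0.16. At an unadjusted p under 0.05, 0 were higher and 5 lower, against 3017 and 3407 of all 21344 tested genes. ALE1, a protease gene of the seed, had no pair in any library. HTH, which keeps organs from fusing, had 45.2 ± 9.96 CPM in Dex and 73.7 ± 1.39 CPM in no_Dex (SD, n = 3 each) and fell by 0.72 (SE 0.15; edgeR's adjusted p = 0.0164). FDH, an enzyme of epidermal lipids, fell by 0.25 (SE 0.06; edgeR's adjusted p = 0.0243). Neither call was firm: the count of genes lower was 0 without no_Dex replicate 1, 2 or 3, 1 without Dex replicate 2 or 3, and 3 without Dex replicate 1, where PDF1 was added (log2 fold change -0.29, adjusted p = 0.0324). PDF1, an L1 box gene that HD-ZIP IV proteins are known to activate, had 122 ± 44.6 CPM in Dex and 181 ± 18.8 CPM in no_Dex (-0.57, SE 0.25; edgeR's adjusted p = 0.172), and is named beside the rule after its values were seen. An L1 box lay within 1000 bases upstream in 6 of the 13 genes, and in 15.8% of the same windows of all protein-coding genes. It lay there in 7 of 32 cuticle and wax genes and 5 of 21 trichome patterning genes. For root hair genes and GL2 targets the count was 3 of 14, and for the other HD-ZIP IV genes 2 of 6.

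Cuticle and wax genes, whose products seal the epidermis, had 28 of 32 members tested, of which 9 fell, 2 rose and 17 were not called (39.3% called; median -0.21). CER4, a fatty acyl-CoA reductase of wax synthesis, had 13.1 ± 1.39 CPM in Dex and 21.3 ± 0.983 CPM in no_Dex (-0.71, SE 0.09; edgeR's adjusted p = 0.00202). LACS1, which activates fatty acids, fell by 0.36, the lipid transfer protein LTPG2 by 0.35 and the cuticle regulator MYB16 by 0.79. CER10 and KCR1, reductases of the fatty acid elongation complex, rose by 0.32 and 0.27. The calls of CER4, LACS1, LTPG2 and MYB16 held in all 13 alternative fits. Those of CER10 and KCR1 were both lost without Dex replicate 3 (edgeR's adjusted p = 0.0527 and 0.0578), without no_Dex replicate 2 (0.0723 and 0.0848) and without no_Dex replicate 3 (0.0587 and 0.0693), and that of CER10 also without Dex replicate 2 (0.0542). Genes lower numbered 4 without no_Dex replicate 2 and 5 without no_Dex replicate 3, and genes higher numbered 4 without Dex replicate 1.

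Trichome patterning genes, the setting in which GL2 and HDG11 act, had 18 of 21 members tested, of which 3 fell, 1 rose and 14 were not called (22.2% called; median -0.30). GL3, a bHLH protein that acts upstream of GL2, had 23, 26 and 19 pairs in Dex and 49, 43 and 51 pairs in no_Dex, and fell by 1.03 (SE 0.20; edgeR's adjusted p = 0.0143). Its relative MYC1 fell by 0.57 and the zinc finger gene ZFP8 by 0.61. SIM, an inhibitor of cyclin-dependent kinases that keeps trichomes from dividing, rose by 0.45 (SE 0.06; edgeR's adjusted p = 0.00277). The GL3 call ended without no_Dex replicate 1 or 3 (edgeR's adjusted p = 0.0525 and 0.0612), that of ZFP8 without no_Dex replicate 2 (0.0519), and that of MYC1 without Dex replicate 2 or no_Dex replicate 2 or 3 (0.0796, 0.121 and 0.121). Genes lower numbered 1 without no_Dex replicate 2 or 3, and genes higher 2 without Dex replicate 1, with ZFP5 added.

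The list of root hair genes and GL2 targets, which also holds WER, had all 14 members tested. Of these 6 fell, none rose and 8 were not called (42.9% called, median -0.32). At an unadjusted p under 0.05, 0 were higher and 7 lower, against 3017 and 3407 of all 21344 tested genes. XTH17, a wall-remodelling enzyme, had 107 ± 5.14 CPM in Dex and 173 ± 1.52 CPM in no_Dex (-0.71, SE 0.06; edgeR's adjusted p = 0.000394). RSL4 and RSL2, bHLH proteins that drive root hair growth, fell by 0.59 and 0.69, and the cellulose synthase gene CESA5 by 0.35. These 4 calls held in all 13 alternative fits, and the list had 4 to 7 genes lower when single libraries were left out. Of the 4 root markers given above, PYK10 and SHR were called lower too, and their part in this was not tested.

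Stomatal lineage genes, to which HDG2 contributes, had 12 tested members, of which 1 fell, none rose and 11 were not called (8.33% called; median -0.27). At an unadjusted p under 0.05, 0 were higher and 4 lower, against 3017 and 3407 of all 21344 tested genes. FAMA, which drives the last step of guard cell differentiation, fell by 0.30 (SE 0.07; edgeR's adjusted p = 0.0309), a call lost by DESeq2 (0.0699) and without any single library other than Dex replicate 1 (edgeR's adjusted p = 0.0639 to 0.110). With the replicate block, where 17.6% of all tested genes were called, 4 were lower. SPCH, POLAR and SCRM2 joined FAMA (edgeR's adjusted p = 0.0211, 0.0369 and 0.0486), and are named after their values were seen. Without Dex replicate 1, 1 gene was called higher (TMM). Of 8 genes of FWA silencing and its target FT, 0 were called by edgeR, DESeq2 or limma-voom, and 0 had an unadjusted p under 0.05. NRPD1, the largest subunit of RNA polymerase IV, had the smallest p of this list (log2 fold change -0.18, SE 0.08; edgeR's adjusted p = 0.174).

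**Figure D4:**
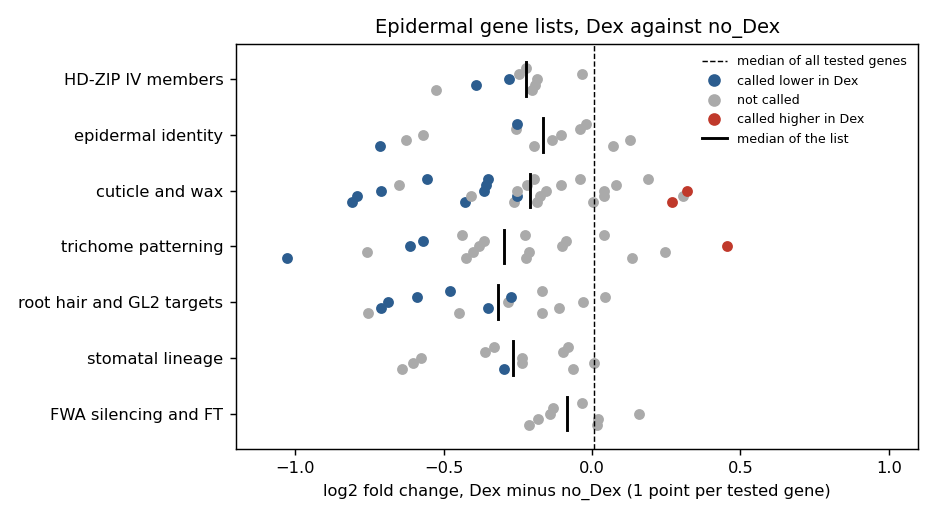
Log2 fold change (Dex minus no_Dex) of each tested gene among the HD-ZIP IV members and in the other lists, coloured by call. The median of each list is a bar and the median of all tested genes (0.01) a dashed line. HDG7 (0.93), which is not among the members, is not shown. Every list median shown lies left of the dashed line. These medians lie between -0.32 for root hair genes and GL2 targets and -0.08 for the genes of FWA silencing.

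For ATML1, the member with the smallest p, the genes outside the family with the most similar profile over the 6 libraries were ABCI20 (AT5G02270), AT5G17590 and AT1G19450. Their root mean square differences from ATML1, in mean-centred log2 of CPM with 0.5 added, were 0.0134, 0.0246 and 0.0251. The likeness of AT5G17590, at 0.839 CPM in Dex and 1.24 CPM in no_Dex, rested on the added 0.5: with nothing added, an alternative chosen after seeing the data, its difference was 0.0961 and it ranked 657, while ABCI20, AT1G19450 and AT4G10060 came first at 0.0136, 0.0253 and 0.0265. The log2 fold changes of these 3 genes were -0.39, -0.38 and -0.35. With 6 libraries in 2 groups this likeness mostly restates the difference between Dex and no_Dex.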

How the data were processed

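RNA was measured by paired-end, unstranded, polyA-selected sequencing (TruSeq, per the labels' protocols) in 6 libraries, 3 Dex and 3 no_Dex, which the series' design text calls biological replicates. The submitters' processing notes name Bowtie2 and the TAIR10 genome, with the Bowtie2 version not given in the sources used here. Deposited by the authors were unnormalised counts of read pairs for each gene model and, beside them, counts of single reads, after removing reads whose top 2 alignments had equal scores, per the file headers. The deposited model length in bases is a column of unit other. Near-identical stretches are therefore counted incompletely, and genes that overlap on opposite strands share counts.

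CPM, FPKM and all tests were computed here from the pair counts. edgeR 4.0.16 in R 4.3.3 (filterByExpr with minimum count 10 and minimum total 15, TMM scaling, two-sided quasi-likelihood test, no covariate) tested 21344 of 33602 gene models, with Benjamini-Hochberg adjustment over all of them and a call at an adjusted p under 0.05. Of the 12258 models left out, 6551 had no pair. CPM and FPKM use the total of counted pairs, and the SE is the size of the log2 fold change over the root of its F statistic. A count of 0 was taken to allow 3 pairs, which covers counting error only. Correlations between libraries used log2 of CPM with 0.5 added. Ratios of genes were compared by exact permutation tests.

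Members and lists were chosen with earlier results of these data known. Named genes were the 16 HD-ZIP IV genes, up to 4 called genes with the smallest p in each direction per list, the gene with the smallest p of a list with no call, and CUC2. Positions, coding sequences and symbols are those of TAIR10.1 in RefSeq, in which 32835 models matched a locus tag. Among the members, only GL2 had a deposited model length equal to that of a TAIR10.1 transcript. Pairs of sequences were aligned globally with Biopython 1.88.

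No libraries were duplicates of each other. Both groups use the same replicate numbers, and the labels do not say what these mark. Across genes, deviations of same-numbered libraries from their group means had correlations of 0.214, 0.162 and 0.143. Those of differently numbered libraries of the 2 groups were 0.0373 at most. Deviations from a mean of 3 libraries depend on each other, so these coefficients are not independent and do not establish a pairing. A fit with the replicate block was an alternative. The other alternatives were DESeq2 1.42.0 size factors and Wald test, omitting the filter, a minimum of 1 CPM in all 6 libraries, limma 3.58.1 voom, single-read counts and leaving out each library.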

Additional observations from a re-analysis of the deposited data

How the results depend on the processing

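When single libraries were left out, genes called higher ranged from 519 to 2339 (1279 with all 6 libraries) and genes called lower from 785 to 2726 (1792), lowest without no_Dex replicate 2 and highest without Dex replicate 1. HD-ZIP IV members lower ranged from 1 to 3 and other HD-ZIP IV genes higher from 0 to 1. Epidermal identity genes lower ranged from 0 to 3, and cuticle genes higher from 0 to 4 and lower from 4 to 13. Trichome genes higher ranged from 1 to 2 and lower from 1 to 3. Root hair genes and GL2 targets lower ranged from 4 to 7, and stomatal genes higher from 0 to 1 and lower from 0 to 1. The share of all tested genes called ranged from 6.08% to 23.6% over the 13 alternatives. That share was 23.6% without Dex replicate 1 and 6.08% to 10.4% without any other single library. The cause of this range was not tested. The log2 fold change of ANL2 ranged from -0.0825 to 0.0005, turning positive without Dex replicate 3.

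With DESeq2's Wald test stomatal genes lower numbered 0. With the replicate block they numbered 4, HDG11 was called, and no other call of the 29 tested named genes changed. With DESeq2 size factors, no filter, limma-voom or single-read counts all 29 kept direction and call, as did the 28 left by the 1 CPM filter. Without no_Dex replicate 2, 9 of the 29 lost their call, the most of any library. The median log2 fold change of the 9 members lay between -0.31 and -0.20 in every alternative. Depth limits FWA and the untested HD-ZIP IV genes, and HDG11 and HDG7 rest on under 130 pairs per library. A difference of the size of that of ANL2 was not detectable.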
